A study of Homo sapiens with 36 samples.

Results

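The comparison described here set differentiated Caco-2 cells that had received an oxyquinoline derivative (OD) against cells that had received its solvent, on the level of messenger RNA. It rests on 6 of the 36 libraries of the series, chosen by their labels: 3 replicates with OD and 3 controls. Caco-2 is a human colorectal cancer cell line that, left at confluence, forms a polarised layer with features of small-intestinal absorptive cells. The other 30 libraries are miRNA libraries, cells that received cobalt chloride (CoCl2), and the cell line HT-29.

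All 6 cultures had been kept under differentiation conditions for 21 days. OD (a ChemDiv library compound whose structure the labels do not give) was used at 5 µM for 24 h, carried by 0.5 µl of dimethyl sulfoxide (DMSO) per ml of medium. The controls received the same volume of DMSO without OD, although a second label of theirs reads as untreated and the study's methods give a higher share of DMSO for the control and CoCl2 media, so the vehicle share is uncertain. Each group is 1 cell line at 1 dose and 1 time, so dose and time could not be examined. CoCl2 at 300 µM for 24 h in the same cells, and OD against control in HT-29, served as points of reference at the end.

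In cells with enough oxygen, prolyl hydroxylases (the EGLN or PHD enzymes) mark the α subunits of hypoxia-inducible factor (HIF) for breakdown. These enzymes need oxygen, iron and 2-oxoglutarate, so that chelators and 2-oxoglutarate competitors can stabilise HIF in normal air, and oxyquinolines are used for that purpose. Stabilised HIF moves cells towards glycolysis, changes the handling of iron, and in the intestinal epithelium acts on barrier and transport genes.

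The libraries held from 13091650 to 16428571 counts. The groups were far apart in a principal component analysis of the 6 libraries, where the first component took 86.2% of the variance and separated OD from control. The OD libraries were less alike than the controls. OD replicate 1 stood apart from the other two, since a chi-square test of its counts gave 9.57 and 12.7 for each degree of freedom against them, while OD replicates 2 and 3 gave 3.44 and the control pairs 2.91 to 3.62. In OD replicate 1 the cytosolic ribosomal protein genes ran a median of 0.33 log2 units above the mean of the other two, against 0.0042 over the 10451 genes with a mean count of at least 100. Named genes that lost their call without it, or without another library, are given with that value beside them. From 24979 to 26023 genes had at least 1 count in a control library, and from 22838 to 24887 in an OD library.

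The Caco-2 label was checked against markers. All 10 enterocyte markers were measured, and their summed level was 5561 to 5985 CPM (counts scaled to a common library size) in the controls and 6157 to 6622 CPM with OD. Sucrase-isomaltase (SI), a defining brush border enzyme of these cells, stood at 289 ± 38.1 CPM in the controls (SD, n = 3), and villin (VIL1) at 796 ± 24.2 CPM. Of the markers of other cell types, PTPRC (leukocytes), TEK (endothelium), TRPM5 (tuft cells), DEFA5 (Paneth cells) and NEUROD1 and NEUROG3 (enteroendocrine cells) had 0 counts in all 6 libraries. Other markers of these types were present: the 6 immune markers summed to 24.4 to 31.6 CPM in the controls and 20.0 to 28.6 CPM with OD, the 5 Paneth cell markers to 29.0 to 36.4 and 22.9 to 33.8 CPM, the 9 enteroendocrine markers to 1.74 to 2.63 and 1.86 to 3.23 CPM, and the 7 goblet cell markers to 739 to 837 and 681 to 807 CPM. LYZ, in both the immune and the Paneth cell list, made up most of both sums, at 23.2 ± 4.02 CPM in the controls. AGR2 made up most of the goblet cell sum, at 747 ± 52.5 CPM in the controls, while MUC2 was at 0.381 CPM. The 6 fibroblast markers summed to 77.2 to 88.3 CPM in the controls and to 34.6 to 38.6 CPM with OD, mostly through PDGFRB, and COL1A2 and DCN were too low to be tested. The 5 stem cell markers summed to 50.8 to 57.3 CPM and to 26.3 to 26.8 CPM, the 5 tuft cell markers to 4.36 to 5.77 and to 2.76 to 3.23 CPM, and the 5 endothelial markers to 8.93 to 12.8 and to 5.83 to 6.79 CPM. Among the markers tested, APOA4 (enterocytes) and ZG16 (goblet cells) were called higher with OD, and LGR5 (stem cells), SH2D6 (tuft cells), VWF (endothelium) and PDGFRB (fibroblasts) lower. VWF lost its call without control replicate 3 (-1.39, FDR 0.0654), OD replicate 2 (-1.47, FDR 0.0516) and OD replicate 3 (-1.32, FDR 0.0634). The part of other cell types in the results was not tested. In bulk RNA, fewer cells of a type and less RNA per cell cannot be told apart.

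Of 16034 genes tested, 1876 (11.7%) were called, meaning a false discovery rate (FDR) under 0.05 in the edgeR quasi-likelihood test and an absolute log2 fold change over 1. OD raised 711 genes (4.43%) and lowered 1165 (7.27%). Without the limit on the fold change, 25.7% of the genes tested were higher and 24.7% lower. Counts for the gene lists below are to be read beside these shares, and a count near them is not a result about the list. The libraries of the groups did not overlap in 1838 of the 1876 called genes, which the limits of a call favour. The share over all genes tested is not given here. Uncalled genes could lack overlap too, such as PSMB6 (log2 -0.07, FDR 0.513). Without OD replicate 1 the calls were 674 higher and 1102 lower. The split differed by the level of the gene. Among the 2131 genes at 100 CPM and over, 91 were called higher and 18 lower, whereas among the 4732 genes from 1 to 10 CPM 242 were higher and 682 lower. It also depended on the scaling: with library size in place of TMM (trimmed mean of M values) the median of all genes moved by -0.15, and 500 genes were called higher (23.3% of the calls, beside 37.9%) and 1644 lower. Of the called genes named here, 21 lost the call with library size alone, all of them higher ones: BCL3, CCNE1, CHAC1, CITED2, CLDN4, CYP51A1, DUSP6, ELF3, GINS2, HBEGF, HIGD1A, IL1B, KLF6, LOXL2, MRPS6, MVD, PFKL, PNPLA2, SLC5A1, SMAD7 and TFRC (log2 0.85 to 0.99). Values below are relative to TMM scaling.

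Long noncoding RNAs stood out by class. The class was known only for the 14105 of 16034 genes tested (88.0%) that were placed by symbol in GENCODE release 44. Unplaced transcripts, such as AC019197.1, are in no class. Of 872 long noncoding RNAs placed in this way, 37 were called higher and 176 (20.2%) lower, beside 546 higher and 613 (4.83%) lower of 12694 protein-coding genes. Within the range of 1 to 10 CPM the shares called lower were 22.8% of 509 long noncoding RNAs and 11.6% of 2956 protein-coding genes. Of 284 processed pseudogenes 30 were called higher and 15 lower, or 23 and 19 with library size alone, and within 1 to 10 CPM 9 and 7 of 128.

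**Figure D1:**
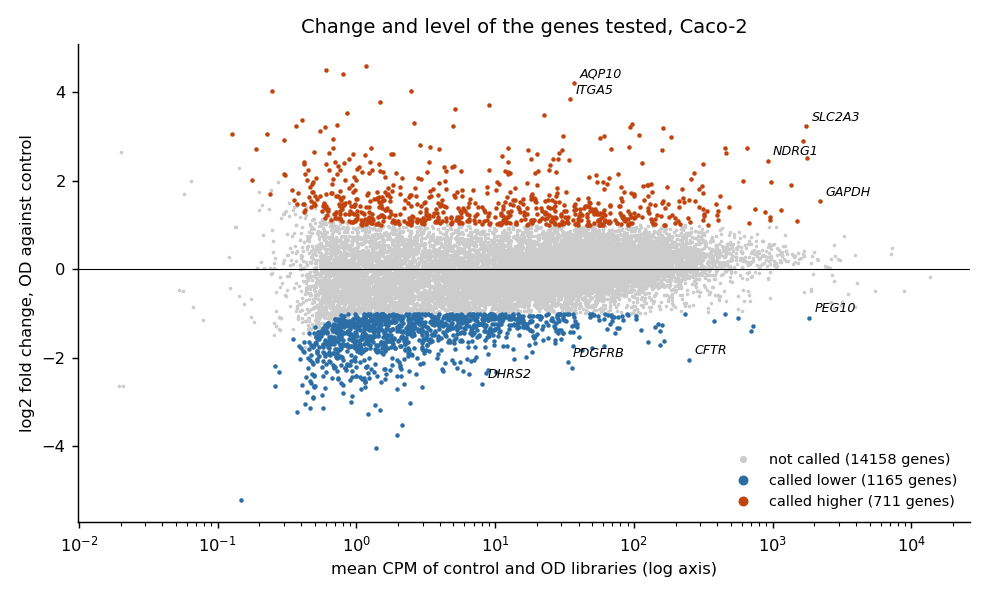
Log2 fold change of OD against control (y axis) by the mean CPM of the 6 libraries (x axis, log scale), each point a gene tested. Called genes are coloured: 711 higher and 1165 lower, and at 100 CPM and over 91 of the called genes lie above 0 and 18 below.

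Among the 15 largest gains of called genes with a mean count of at least 100 and no overlap between groups were those of AQP10, ITGA5, PPFIA4, PFKFB4, SLC2A3, ENO2, HK2, PFKP, SPAG4, ARHGAP45, EMP1, SLC6A8, CKB and PDK1. Of these 15, PFKFB4, SLC2A3, ENO2, HK2, PFKP and PDK1 belong to glucose use and SLC6A8 and CKB to the creatine system. AQP10 (chromosome 1, 154321090 to 154325325, plus strand), a water and glycerol channel of the small intestine, stood at 3.49, 5.90 and 1.94 CPM in the controls and at 69.6, 66.9 and 75.1 CPM with OD. All 3 OD libraries lay far above the controls, of which the third was the lowest. The log2 fold change was 4.22 ± 0.17 (SE, FDR 5.94e-16), a gain of 18.6 times. ITGA5, the α5 chain of the fibronectin receptor, went from 4.49 ± 0.578 to 64.8 ± 3.13 CPM (log2 3.85, FDR 1.47e-18).

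Creatine kinase and its supply rose. CKB, the cytosolic creatine kinase that stores energy as phosphocreatine, rose from 369, 417 and 395 CPM to 2704, 2922 and 3112 CPM and had, after SLC2A3, the largest gain in CPM of the called genes (log2 2.89, FDR 2.17e-17). SLC6A8, the creatine transporter, rose from 13.1 ± 2.64 to 102 ± 6.60 CPM (log2 2.96). EMP1, a tetraspan membrane protein of epithelia, rose from 41.4 ± 4.0 to 331 ± 24.4 CPM (log2 3.00), and SPAG4, a SUN-domain protein of the nuclear envelope, from 6.77 ± 1.33 to 55 ± 5.07 CPM (log2 3.02). PPFIA4, a liprin scaffold protein, and ARHGAP45, a GTPase-activating protein, rose by log2 3.48 and 3.01.

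HIF binds DNA at a core of ACGTG or GCGTG. The core was looked for on both strands (as CACGT and CACGC on the other) in the 250 bases before the RefSeq transcription starts of GRCh38.p14. It was present in 43.2% of all 35116 RefSeq windows, and, taking all starts of a gene, in 63.5% of the 10931 genes tested that have a window. The share was 64.4% of 452 genes called higher and 51.4% of 591 called lower. Among the 15 genes with the largest gains, 12 had a window and 9 of these held the core, whereas 2 of 8 did among the 15 with the largest losses. A match is a description of the letters only. Below, 3 windows of strongly raised genes and 1 of a strongly lowered gene are printed to show what such a start looks like, with the core in capitals.
AQP10 (chr1:154320843-154321092, plus strand): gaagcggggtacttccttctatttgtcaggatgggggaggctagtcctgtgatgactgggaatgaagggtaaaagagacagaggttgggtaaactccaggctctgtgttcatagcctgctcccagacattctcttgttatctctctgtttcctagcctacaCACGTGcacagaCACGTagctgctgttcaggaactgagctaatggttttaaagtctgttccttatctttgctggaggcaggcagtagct
HK2 (chr2:74834920-74835169, plus strand): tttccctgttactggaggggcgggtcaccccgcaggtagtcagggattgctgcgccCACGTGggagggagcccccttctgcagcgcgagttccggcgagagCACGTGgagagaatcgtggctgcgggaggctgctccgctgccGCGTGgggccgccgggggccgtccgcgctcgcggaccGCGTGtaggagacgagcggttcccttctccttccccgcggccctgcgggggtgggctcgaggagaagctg
PFKFB4 (chr3:48556804-48557053, minus strand): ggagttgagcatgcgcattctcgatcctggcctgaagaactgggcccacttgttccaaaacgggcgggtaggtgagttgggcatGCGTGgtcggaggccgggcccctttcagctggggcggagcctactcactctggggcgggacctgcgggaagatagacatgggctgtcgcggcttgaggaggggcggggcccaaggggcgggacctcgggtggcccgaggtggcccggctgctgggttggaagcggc
UGT2B15 (chr4:68670653-68670902, minus strand): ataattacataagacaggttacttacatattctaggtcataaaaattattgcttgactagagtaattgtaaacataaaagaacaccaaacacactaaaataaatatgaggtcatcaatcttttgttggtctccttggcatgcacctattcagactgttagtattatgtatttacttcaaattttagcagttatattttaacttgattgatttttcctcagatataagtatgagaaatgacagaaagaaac
HK2 has 2 windows, of which the one printed held 6 matches and the other, chr2:74833877-74834126, held 3. The windows held 3 matches for AQP10 and 1 for PFKFB4, while that of UGT2B15 held 0. These 4 were picked after their values were seen, and CKB and SLC6A8, which also rose, held 0 matches in their windows.

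Each step from hexokinase to lactate dehydrogenase had at least 1 gene called higher. Of the 21 glycolytic genes tested, 14 were called higher and 1 lower (median log2 fold change 1.36, against -0.02 over all genes). SLC2A3 (GLUT3, a high-affinity glucose transporter) stood at 345, 326 and 340.1 CPM in the controls and at 3712, 2961 and 2832 CPM with OD, the largest gain in CPM of any called gene (log2 3.23 ± 0.10, FDR 2.11e-18). SLC2A1 (GLUT1, the general basal transporter) stood at 165, 165 and 175 and at 1178, 1077 and 1144 CPM (log2 2.75 ± 0.08, FDR 1.47e-18). Neither transporter overlapped between groups. On the per-length scale of the deposited RPKM values, SLC2A3 was at 56.6 ± 1.59 RPKM and SLC2A1 at 38.9 ± 1.21 RPKM in the controls, and at 519 ± 77.0 and 255 ± 11.4 RPKM with OD.

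Among the other sugar carriers, SLC2A5 (the apical fructose transporter) rose from 12.1 ± 3.11 to 43.5 ± 2.37 CPM (log2 1.84) and SLC5A1 (the sodium-glucose cotransporter SGLT1) from 1.57 ± 0.396 to 3.23 ± 0.955 CPM (log2 1.03). SLC2A2 (GLUT2, the basolateral carrier) fell from 6.17 ± 0.545 to 2.60 ± 0.870 CPM (log2 -1.23, FDR 8.57e-05). Without OD replicate 1, 2 transport genes were called lower. SLC5A1 lost its call without control replicate 1 (0.97), control replicate 3 (0.90) and OD replicate 3 (0.78). The other 6 of the 11 transport genes tested were not called.

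Along the pathway, hexokinase 2 (HK2) stood at 32.7, 32.5 and 30.6 CPM in the controls and 307, 298 and 266 CPM with OD (log2 3.18 ± 0.08, FDR 3.65e-19). Hexokinase 1 (HK1) went from 12 ± 0.606 to 17.7 ± 1.04 CPM, which passed the FDR but stayed under the fold limit (log2 0.56). Per length, HK2 was at 5.50 ± 0.206 and HK1 at 1.95 ± 0.0958 RPKM in the controls, and at 48.9 ± 3.51 and 2.81 ± 0.162 RPKM with OD. The platelet-type phosphofructokinase PFKP rose by log2 3.03 and the liver-type PFKL by 1.00, while the muscle-type PFKM was -0.56, under the fold limit. Per length PFKP thus went from 4.33 ± 0.685 to 34.6 ± 1.09 RPKM and PFKM from 13.7 ± 0.399 to 9.07 ± 0.289 RPKM, so that their order changed. PFKL lost its call without control replicate 1 (0.94) and OD replicate 3 (0.92).

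Enolases and lactate dehydrogenases differed by isoform. ENO2 rose from 18.1 ± 1.99 to 169 ± 8.54 CPM (log2 3.22), ENO1 from 569 ± 17.9 to 2124 ± 154 CPM (1.90), and the muscle enolase ENO3 was -0.81, under the fold limit. LDHA, the subunit that favours lactate production, stood at 553, 508 and 509 CPM in the controls and 3388, 2838 and 2738 CPM with OD (log2 2.51, FDR 2.17e-17). LDHB, the subunit of oxidative tissue, was lower at 48.3 ± 3.73 and 28.6 ± 5.27 CPM (log2 -0.75, FDR 3.11e-06, under the fold limit), and the mitochondrial D-lactate dehydrogenase LDHD fell (log2 -1.54). Per length, LDHA was at 88.5 ± 4.42 RPKM in the controls beside 16.5 ± 1.26 of LDHB, and with OD at 493 ± 56.9 beside 9.55 ± 1.76 RPKM. Of the single-step enzymes in between, GPI, TPI1, PGK1, PGAM1 and PKM rose by log2 1.65, 1.29, 1.97, 1.36 and 1.36.

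The switches around the pathway moved too. PFKFB4 and PFKFB3, which make fructose-2,6-bisphosphate, the activator of phosphofructokinase, rose by log2 3.28 and 1.61. PFKFB1, PFKFB2 and TIGAR were not called. PDK1, the kinase that shuts pyruvate out of the citric acid cycle, stood at 23.5, 25.7 and 21.9 CPM in the controls and 154, 172 and 156 CPM with OD (log2 2.76 ± 0.09). It was the 1 called gene of the 12 of pyruvate entry. SLC16A3 (MCT4, the lactate exporter) rose from 5.65 ± 1.07 to 34.1 ± 2.22 CPM (log2 2.60, FDR 5.79e-14). Glycogen branching enzyme GBE1 rose by log2 2.48 and was the 1 called of 15 glycogen genes tested, of which 7 passed the FDR upwards and 3 downwards.

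Of 6 genes of gluconeogenesis tested, 1 was called higher and 1 lower. PCK2 and PC passed the FDR but stayed under the fold limit (log2 -0.85 and 0.51). G6PC and FBP2 were -0.69 and -0.54 (FDR 0.290 and 0.331). PCK1 (cytosolic PEPCK, the entry step) stood at 2.79, 3.42 and 3.32 CPM in the controls and 24.1, 19.2 and 20.9 CPM with OD (log2 2.75 ± 0.15, FDR 2.18e-13). FBP1 (fructose-1,6-bisphosphatase, which opposes phosphofructokinase) stood at 3.26, 3.35 and 3.25 and 0.807, 0.601 and 0.423 CPM (log2 -2.41 ± 0.33, FDR 1.54e-06). Neither gene overlapped between groups.

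**Figure D2:**
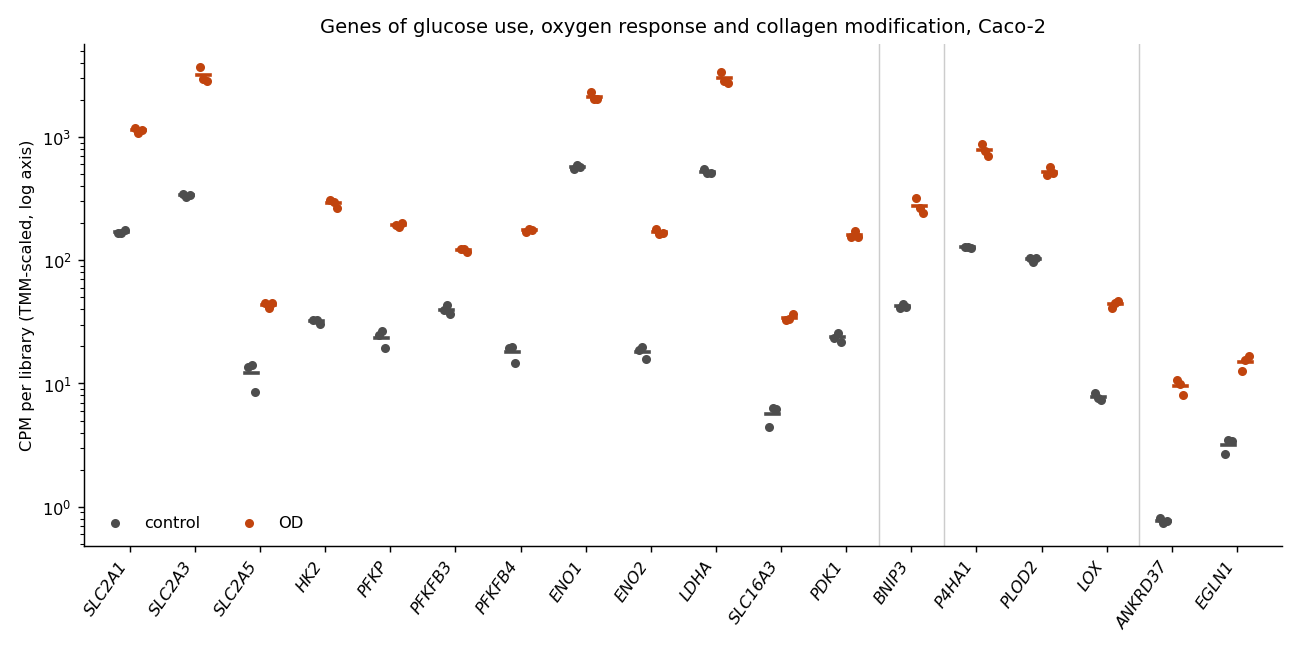
CPM of 18 genes in each library (points; log y axis) for control and OD, with the group mean as a bar, n = 3 per group; thin lines separate glucose use, mitophagy, collagen modification and oxygen response. No gene overlaps between groups, and SLC2A3 has the highest OD level, a mean of 3168 CPM.

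Among the parts of the oxygen sensor itself, the RNAs of the main α subunits were not called. HIF1A was 89.1 ± 5.69 CPM in the controls and 93.3 ± 5.04 CPM with OD (log2 0.07, FDR 0.609). EPAS1 (HIF-2α) was 126 ± 7.22 and 191 ± 5.58 CPM (log2 0.60, FDR 2.02e-07), under the fold limit. HIF3A, whose products can oppose HIF, fell from 19.8, 18.3 and 19.9 CPM to 7.06, 8.29 and 9.24 CPM (log2 -1.24, FDR 8.35e-08). Of the hydroxylases that mark HIF, EGLN1 (PHD2) rose from 2.68, 3.49 and 3.39 CPM to 12.6, 15.6 and 16.7 CPM (log2 2.24, FDR 5.91e-11), with no overlap. EGLN3 (PHD3) was 0.94 (FDR 7.09e-05) and EGLN2 (PHD1) 0.32, both under the fold limit, and VHL, the ligase subunit that binds hydroxylated HIF, was 0.09 (FDR 0.428). Of the coactivators and feedback genes, CITED2, MXI1 and BHLHE40 rose by log2 1.01, 1.45 and 2.16, 3 of 7. CITED2 lost its call without control replicate 2 (0.99) and OD replicate 3 (1.00).

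The 9 genes of the hypoxia core list (ALDOC, KDM3A, BHLHE40, DDIT4, NDRG1, P4HA1, BNIP3, PDK1 and ANKRD37) were all called higher, with a median of 2.46. The study chose this list on these samples, so its direction is not independent evidence. NDRG1, a stress-induced gene that gained more CPM than all but 5 called genes, stood at 283, 311 and 257 CPM in the controls and 1598, 1571 and 1497 CPM with OD (log2 2.46, FDR 1.18e-17). ANKRD37 rose most, from 0.771 ± 0.0395 to 9.55 ± 1.29 CPM (log2 3.61). CA9, a classical HIF target, was too low to be tested, with 0, 0 and 0 counts in the controls and 4, 0 and 7 with OD.

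Some mitophagy receptors and secreted factors rose. BNIP3 and BNIP3L, receptors that direct mitochondria to autophagy, rose together with HIGD1A (1.06), from 42.3 ± 1.40 to 275 ± 39.4 CPM (log2 2.70) and from 47.1 ± 3.90 to 154 ± 12 CPM (1.71), and PINK1 was 0.23 and FUNDC1 -0.20 (FDR 0.233 and 0.235). VEGFA, the main angiogenic factor, went from 197, 194 and 190.5 CPM to 469, 431 and 443 CPM (log2 1.21 ± 0.07, FDR 1.11e-12). The groups did not overlap. Of the 14 secreted factors tested, STC2 and IGFBP2 also rose, by 1.82 and 1.25, and EPO and ANGPT1 fell from levels under 1 CPM. Without OD replicate 1, 3 secreted factors were called higher and 1 lower. HIGD1A lost its call without control replicate 2 (0.98), OD replicate 2 (1.00) and OD replicate 3 (1.00). IGFBP2 was under the limits without control replicate 1 (0.91). EPO did not keep its call without control replicate 2 (-1.49, FDR 0.0834), control replicate 3 (-1.58, FDR 0.0597), OD replicate 2 (-1.18, FDR 0.158) and OD replicate 3 (-1.43, FDR 0.0932). ANGPT1 lost its call without control replicate 1 (-1.34, FDR 0.118) and OD replicate 1 (-1.13, FDR 0.0746). Adrenomedullin (ADM) and ANGPTL4 were 0.53 and 0.85, under the fold limit.

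Enzymes that use oxygen were called higher in part. The collagen hydroxylases and the demethylases of the JmjC and TET families also use 2-oxoglutarate, as the prolyl hydroxylases of HIF do, whereas the lysyl oxidases are copper enzymes. Of 11 collagen hydroxylases and lysyl oxidases, 5 were called higher. P4HA1, a catalytic subunit of collagen prolyl 4-hydroxylase, stood at 127, 128 and 126 CPM in the controls and 886, 772 and 706 CPM with OD (log2 2.63, FDR 9.35e-18). P4HA2, its paralogue, rose by 1.90, PLOD2, a lysyl hydroxylase, by 2.37, LOX, which cross-links collagen, by 2.50, and LOXL2 by 1.09, while PLOD1 and PLOD3 were 0.11 and -0.03 (FDR 0.320 and 0.819). Of the 19 histone and DNA demethylases, KDM3A, KDM4B and JMJD6 rose by 1.82, 1.28 and 1.24, KDM8 fell (log2 -1.04), and the TET enzymes were not called. LOXL2 lost its call without control replicate 2 (0.96, FDR 0.0599) and control replicate 3 (0.78, FDR 0.0866). KDM8 was under the limits without control replicate 2 (-0.78) and OD replicate 2 (-0.80).

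**Figure D3:**
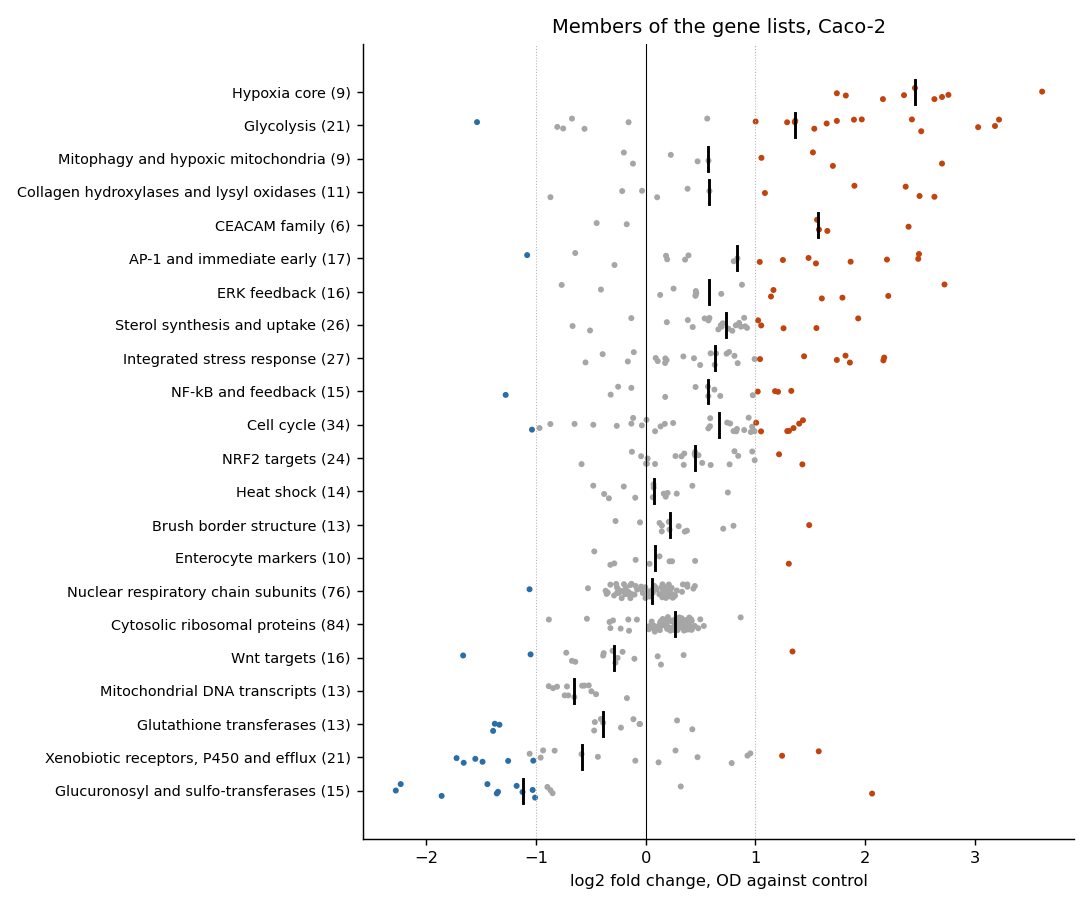
Log2 fold change of OD against control for each tested member (points) of 22 gene lists, with the number tested in parentheses and the list median as a black bar. Coloured points are called genes, dotted lines mark the fold limit; the hypoxia core list has a median of 2.46 and the glucuronosyl and sulfotransferases one of -1.12.

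Iron genes were examined because HIF-2 acts on duodenal iron uptake and oxyquinolines bind metals. SLC11A2 (DMT1, the apical iron importer) stood at 202, 224 and 193 CPM in the controls and 580.4, 607 and 541 CPM with OD (log2 1.48 ± 0.08, FDR 1.47e-13). TFRC, the transferrin receptor, stood at 637, 586 and 597 and 1338, 1338 and 1265 CPM (log2 1.11 ± 0.07, FDR 6.49e-12). Neither overlapped between groups. Ceruloplasmin (CP), a ferroxidase, rose from 4.68 ± 0.712 to 11.8 ± 0.395 CPM (log2 1.33), and STEAP3, an endosomal ferrireductase, fell (log2 -1.06). STEAP3 lost its call without control replicate 3 (-0.98) and OD replicate 1 (-0.96). The exporter SLC40A1 (ferroportin) was -0.28 and the apical reductase CYBRD1 0.08 (FDR 0.00604 and 0.582). FTL, the ferritin light chain, was 0.05 (FDR 0.585), and FTH1, the heavy chain, was 0.63 (FDR 0.00125), under the fold limit. Of 11 genes of iron storage and sensing tested, 1 was called higher. By the FDR alone 7 were higher and 2 lower, beside 25.7% and 24.7% of all genes tested. BMP6, which signals iron stores to hepcidin in liver, rose from 7, 1 and 5 counts to 53, 83 and 78 counts (log2 4.03, FDR 2.81e-09).

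Genes of the metal and oxidant responses were called in 1 of 6 metallothioneins, 2 of 21 zinc transport genes, 2 of 24 NRF2 targets and 0 of 14 heat shock genes, beside 11.7% of all genes tested. Among metallothioneins MT2A rose from 3.80 ± 1.69 to 10.6 ± 0.474 CPM (log2 1.50, FDR 3.69e-07), and MT1X was 0.24 (FDR 0.478). MT1G had 2, 5 and 2 counts in the controls and 3, 5 and 2 with OD. MT1H had 0, 0 and 0 and then 0, 2 and 0, so both were too low for a change to be measured. Among zinc transport genes, SLC39A2 rose from 1, 0 and 1 counts to 14, 21 and 18 counts and SLC30A4 by log2 1.24. SLC30A4 lost its call without OD replicate 2 (1.00, FDR 0.0711). Without OD replicate 1, 3 zinc transport genes were called higher. Among targets of NRF2, a transcription factor of the oxidant response, GPX2 and OSGIN1 rose by 1.43 and 1.22. A further 14 of them passed the FDR upwards without reaching the fold limit (median of the list 0.45), among them NFE2L2 itself at 0.97 and TXNRD1 at 0.84, while NQO1 was 0.00 (FDR 0.969). Haem oxygenase 1 (HMOX1) was at 17.8 ± 1.91 and 24.3 ± 3.05 CPM (log2 0.45). By the edgeR test 0 heat shock genes were called, 8 had an unadjusted p under 0.05 and DESeq2 called 0, and HSPA1A was 0.18 (FDR 0.0655).

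The integrated stress response, which runs through ATF4 when translation initiation is slowed, was raised in part. Of 27 genes, 7 were called higher (median 0.63). ATF3 rose from 4.42, 5.16 and 4.29 CPM to 26.4, 19.4 and 16.9 CPM (log2 2.17), GDF15, a secreted stress cytokine, from 7.04 ± 0.747 to 31.6 ± 3.15 CPM (2.17), and PPP1R15A, which restores translation, from 75.1 ± 2.95 to 273 ± 24.4 CPM (1.86). STC2, ASNS, MTHFD2 and CHAC1 rose by 1.82, 1.74, 1.44 and 1.04. CHAC1 lost its call without control replicate 1 (0.94), control replicate 2 (0.98) and OD replicate 3 (0.83). ATF4 itself was 0.84 and DDIT3 (CHOP) 0.99, just under the fold limit. Of 24 genes of the unfolded protein response 2 were called, beside 11.7% of all genes tested. These were ERO1A, the oxygen-using oxidase of the endoplasmic reticulum, and DNAJB9, higher by 2.03 and 1.44, while the chaperone HSPA5 was 0.45. VARS1 fell (log2 -1.24), the 1 called gene of 20 aminoacyl-tRNA synthetases.

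Part of the immediate early genes, which follow growth factor and stress signals, rose. Of 17 AP-1 and immediate early genes, 8 were called higher and 1 lower, with a median of 0.84. FOS, a subunit of AP-1, stood at 5.06, 4.90 and 3.12 CPM in the controls and 21.3, 18.5 and 21.0 CPM with OD (log2 2.20 ± 0.14, FDR 2.76e-12). MAFF, FOSB, FOSL1, JUN, JUNB, JUND and KLF6 rose by between 1.04 and 2.49, whereas EGR1 was -0.64 (FDR 8.85e-04), under the fold limit and in the other direction. Feedback genes of ERK signalling, which are induced by ERK and dampen it, were called higher in 6 of 16. DUSP5, a nuclear ERK phosphatase, stood at 18.7, 18.3 and 16.7 CPM in the controls and 136, 111 and 108 CPM with OD (log2 2.72, FDR 1.22e-16), and DUSP4, ETV5, DUSP1, SPRY4 and DUSP6 rose by 2.21, 1.79, 1.61, 1.17 and 1.14. HBEGF was the 1 called gene of 8 EGFR ligands and receptors, at 1.13, and EGFR itself was 0.00. KLF6 lost its call without control replicate 2 (0.99). HBEGF was under the limits without OD replicate 1 (0.85).

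In the NF-kB list, 4 of 15 genes were called higher. These were the subunits RELB and NFKB2 (1.33 and 1.18), BCL3 (1.02) and TNIP1 (1.21), while TRAF1 fell (log2 -1.28) and the feedback inhibitor NFKBIA was 0.63, under the fold limit. Of 16 chemokines and cytokines tested, CCL20, CCL28, TGFB1, IL1A and IL1B were called higher and CX3CL1 lower. Without OD replicate 1, 3 were called higher. CCL20, an epithelial attractant of lymphocytes and dendritic cells, went from 1.75, 1.88 and 1.25 CPM to 7.06, 6.01 and 5.86 CPM (log2 1.95, FDR 6.86e-09) without overlap. BCL3 lost its call without control replicate 1 (0.98), control replicate 3 (0.95), OD replicate 2 (0.97) and OD replicate 3 (0.99). IL1A was under the limits without control replicate 1 (1.22, FDR 0.121), control replicate 2 (1.49, FDR 0.0704), OD replicate 1 (1.08, FDR 0.150) and OD replicate 3 (1.49, FDR 0.0516). IL1B did not keep its call without control replicate 1 (1.12, FDR 0.0736), control replicate 3 (0.97, FDR 0.101), OD replicate 1 (1.02, FDR 0.0689) and OD replicate 2 (1.12, FDR 0.0634). CX3CL1 lost its call without OD replicate 2 (-1.26, FDR 0.0758). CXCL8, IL6 and TNF were too low to be tested. NOX1, the epithelial NADPH oxidase, fell from 9.57 ± 0.853 to 3.54 ± 0.156 CPM (log2 -1.43) and the flagellin receptor TLR5 fell too (-1.48), and the stress ligand MICB rose by 1.74. In the urokinase system PLAUR, the urokinase receptor, rose from 1.82 ± 0.139 to 5.88 ± 0.841 CPM (log2 1.68, FDR 1.12e-06), and its ligand PLAU was -0.73 (FDR 0.131). Of 21 p53 targets, GADD45A and PLK3 were called, both higher, beside 11.7% of all genes tested that were called.

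Some genes of sterol synthesis, uptake and their control rose, and those of fat storage were called in both directions. Of 26 such sterol genes, 5 were called higher, 22 passed the FDR upwards and 2 downwards (median 0.73). With library size alone 3 were called higher. INSIG2, which retains the sterol sensor in the endoplasmic reticulum, stood at 27.6, 25.4 and 26.7 CPM in the controls and 98.7, 102 and 105 CPM with OD (log2 1.94, FDR 1.03e-14). INSIG1, CYP51A1 and MVD rose by 1.26, 1.05 and 1.03. Among 16 lipid droplet genes, HILPDA, PLIN2, AGPAT2 and PNPLA2 rose by 1.53, 1.31, 1.28 and 1.07, whereas GPAM, which starts triglyceride synthesis, fell from 191 ± 11.1 to 61.3 ± 5.76 CPM (log2 -1.64) and MOGAT2, of the monoacylglycerol pathway of enterocytes, from 4.90 ± 1.38 to 1.52 ± 0.354 CPM (-1.70). By the edgeR test 0 of 15 fatty acid synthesis genes were called, 14 had an unadjusted p under 0.05 and DESeq2 called 0 (median 0.19), and 8 passed the FDR upwards and 5 downwards. With library size alone 4 of the lipid droplet genes were called lower. CYP51A1 lost its call without control replicate 2 (0.93). MVD was under the limits without OD replicate 3 (0.93).

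Of the 23 genes of fatty acid oxidation, EHHADH and ACADSB fell (log2 -1.41 and -1.38). By the FDR alone 10 in all were lower and 5 higher, beside 24.7% and 25.7% of all genes tested. Among apolipoproteins, APOA4 rose from 13.1 ± 3.01 to 32.4 ± 5.47 CPM (log2 1.31), APOB was 3927 ± 18.5 and 2359 ± 259 CPM (-0.74, FDR 1.73e-07, under the fold limit), and APOA1 was 0.04 (FDR 0.743).

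Transcripts of mitochondrial DNA were lower, below the fold limit. Of the 13 protein-coding mitochondrial DNA transcripts, 12 passed the FDR downwards (median -0.65). With the fold limit the edgeR test called 0, while 13 had an unadjusted p under 0.05, DESeq2 called 0, and 1 was called without OD replicate 1. MT-CO3 went from 4783, 4999.5 and 5375 CPM to 2994, 2694 and 2755 CPM (log2 -0.84, FDR 2.08e-09), and MT-CO1 was -0.17 (FDR 0.0775). These transcripts made up 6.19% to 6.91% of the counts in the controls and 4.48% to 4.84% with OD. Of the 76 nuclear respiratory chain genes, 1 was called (NDUFC2, -1.06), and the median of 0.05 turned to -0.10 with library size alone. Of 23 citric acid cycle genes, OGDHL fell (log2 -1.01). NDUFC2 lost its call without OD replicate 1 (-0.95). OGDHL was under the limits without control replicate 2 (-0.97) and OD replicate 1 (-0.93). Cytosolic ribosomal protein genes were higher in 52 of 84 by the FDR alone (25.7% of all genes were), with a median of 0.27 that was 0.15 without OD replicate 1. Of 76 genes of the mitochondrial ribosome, 20 were lower and 6 higher by the FDR alone (median -0.06), beside 24.7% and 25.7% of all genes. MRPS26 and MRPS6 were the 2 called, higher by 1.66 and 1.10. MRPS6 lost its call without OD replicate 1 (0.96). MRPS6 also shares its locus with SLC5A3 on the same strand.

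Of 34 cell cycle genes tested, 7 were called higher and 1 lower. The 7 (E2F1, RRM2, CDC6, CDC45, CCNE2, CCNE1 and GINS2) serve DNA replication or its regulation. E2F1 stood at 42.4, 43.8 and 40.8 CPM in the controls and 115, 109.7 and 118 CPM with OD (log2 1.43 ± 0.09, FDR 9.10e-12). CCNB1, the mitotic cyclin, fell from 112, 122 and 129 CPM to 59.9, 60.3 and 56.7 CPM (log2 -1.04 ± 0.09, FDR 5.21e-10). Cyclin D1 (CCND1) rose from 92.7 ± 5.00 to 242 ± 13.7 CPM (log2 1.39), and the inhibitor CDKN1A was 0.93, under the fold limit. Without OD replicate 1, 6 were called higher. With library size alone 3 cell cycle genes were called lower. CCNE1 lost its call without OD replicate 1 (0.99). GINS2 was under the limits without control replicate 1 (0.98) and OD replicate 1 (0.97). CCNB1 did not keep its call without control replicate 3 (-0.99).

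Of 16 Wnt targets, LGR5 and DKK1 fell and DKK4 rose. By the FDR alone 8 were lower and 1 higher (median -0.29), beside 24.7% and 25.7% of all genes tested. LGR5, the receptor that marks crypt stem cells, stood at 29.1, 27.5 and 32.0 CPM in the controls and 8.47, 9.85 and 9.60 CPM with OD (log2 -1.66, FDR 4.25e-11). AXIN2, the standard feedback target, was -0.26 (FDR 0.103). Of the BMP and TGF-β genes, BMP6, BMP2, ID1 and SMAD7 rose, 4 of 13, with BMP2 going from 36.8 ± 1.05 to 98.5 ± 8.23 CPM (log2 1.42). Among clock genes NR1D1 (REV-ERBα) rose by 1.57 and HLF fell (log2 -1.10), 2 of 16, beside 11.7% of all genes tested. HLF lost its call without OD replicate 1 (-0.91). DKK1 was under the limits without control replicate 3 (-0.99) and OD replicate 3 (-0.98).

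Among the 15 largest losses, by the same limits on count and overlap, were those of DHRS2, DNAH3, ATP10B, UGT2B15, ADH4, PDGFRB, ARHGEF38, NINJ2-AS1, CFTR, AC019197.1, DEFB1, TM4SF4 and UGT2B17. They were smaller than the largest gains, at -2.58 to -1.86 log2 units beside 2.76 to 4.22. CFTR (chromosome 7, 117287120 to 117715971, plus strand), the apical chloride channel of intestinal secretion, stood at 378, 407 and 412 CPM in the controls and 89.5, 99.8 and 102 CPM with OD. All OD libraries lay far below the controls (log2 -2.04 ± 0.09, FDR 4.30e-15, 4.11-fold lower). SLC12A2 (NKCC1, which loads chloride for secretion) was 72.5 ± 5.68 and 38.6 ± 5.83 CPM (log2 -0.91), under the fold limit. Of 15 genes of ion transport tested, 1 was called higher and 1, CFTR, lower.

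Several of these genes are best known from the liver. ADH4, an alcohol dehydrogenase that also oxidises retinol, stood at 53.1, 61.3 and 62.0 CPM in the controls and 10.9, 15.2 and 11.1 CPM with OD (log2 -2.24, FDR 1.76e-13). Of the plasma carriers, RBP4 (for retinol) fell from 772 ± 35.3 to 362 ± 21.4 CPM (-1.09) and TTR (transthyretin) from 605 ± 60.0 to 299 ± 9.28 CPM (-1.02). TTR lost its call without control replicate 2 (-0.96), control replicate 3 (-0.99) and OD replicate 2 (-0.99). DEFB1, the constitutive epithelial defensin, fell (log2 -1.99), as did DHRS2, a mitochondrial reductase (-2.58). PDGFRB, a receptor tyrosine kinase of mesenchymal cells, stood at 49.5, 58.1 and 54.0 CPM in the controls and 13.8, 12.3 and 11.6 CPM with OD (log2 -2.10, FDR 1.73e-13). The other fibroblast markers tested (COL1A1, COL3A1 and LUM) were -0.48, -0.39 and 0.37, and whether another cell type plays a part in the loss of PDGFRB was not tested.

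Measured as CPM, the largest losses among called genes were those of PEG10, GLUD1, OAT, RBP4, TTR, CFTR, ST6GAL1, SLC7A2, HEPACAM2 and TFEC. GLUD1 (glutamate dehydrogenase) stood at 1046, 954 and 1029.5 CPM in the controls and 392, 376 and 379 CPM with OD (log2 -1.40, FDR 1.97e-13), and OAT (ornithine aminotransferase) at 1007, 1019.5 and 1027 and 458, 406 and 383 CPM (-1.29). Both are mitochondrial enzymes of glutamate metabolism, and neither overlapped between groups. PEG10, a retrotransposon-derived imprinted gene, fell from 2506 ± 33.8 to 1174 ± 41.5 CPM (-1.09), and SLC7A2, a carrier of cationic amino acids, from 247 ± 5.01 to 80.1 ± 8.22 CPM (-1.62). Among the 10 largest gains in CPM were those of SLC2A3, CKB, LDHA, GAPDH, ENO1, NDRG1, PGK1, DSP and SLC2A1. GAPDH, often used as a reference gene, stood at 1073, 1192 and 1125 CPM in the controls and 3314, 3176 and 3354 CPM with OD (log2 1.54, FDR 2.60e-14). DSP (desmoplakin), which anchors the cytoskeleton at desmosomes, rose by 1.34. TFEC lost its call without control replicate 3 (-0.93), OD replicate 1 (-0.98) and OD replicate 2 (-0.94).

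Most of the enzymes measured that conjugate drugs, steroids and bile acids fell. Of 15 glucuronosyl and sulfotransferases tested, 10 were called lower and 1 higher (median -1.12). UGT2B15, UGT2B10, UGT2B17, UGT2B7 and UGT2B11 fell (log2 from -2.28 to -1.36). UGT2B15, which conjugates androgens, stood at 12.2, 16.7 and 15.6 CPM in the controls and 3.16, 3.00 and 2.96 CPM with OD (FDR 3.43e-10). SULT1C2, a sulfotransferase, fell from 146, 151 and 132 CPM to 59.9, 74.8 and 62.0 CPM (-1.12), and SULT1B1, SULT1E1, SULT1A2 and SULT2A1 fell as well (-1.35, -1.18, -1.03 and -1.01). SULT1A2 lost its call without control replicate 1 (-1.15, FDR 0.0553), control replicate 2 (-0.91, FDR 0.139), control replicate 3 (-1.03, FDR 0.0880), OD replicate 1 (-0.82, FDR 0.135), OD replicate 2 (-1.19, FDR 0.0593) and OD replicate 3 (-1.11, FDR 0.0674). SULT2A1 was under the limits without control replicate 2 (-0.97) and OD replicate 2 (-0.93). UGT1A1, the bilirubin-conjugating enzyme, was called higher from very few counts (5, 1 and 3 in the controls and 12, 13 and 13 with OD), and it shares its last exons with the other UGT1A genes.

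Of 13 glutathione transferases, 3 were called lower, all of the alpha class. GSTA2 stood at 212, 228 and 229 CPM in the controls and 91.1, 84.4 and 79.5 CPM with OD (log2 -1.39, FDR 2.84e-13), and GSTA4 and GSTA1 fell (log2 -1.37 and -1.33), whereas GSTP1 was -0.06 (FDR 0.587). Of 21 genes of drug metabolism and efflux, 6 were called lower and 2 higher. CYP4F3, an oxidase of fatty acids and leukotrienes, stood at 39.9, 33.6 and 34.5 CPM in the controls and 13.6, 12.4 and 10.8 CPM with OD (-1.55, FDR 4.98e-11), and CYP4F12, CYP2C19, CYP3A5 and ABCC4 fell (log2 -1.66, -1.49, -1.25 and -1.02). The efflux pump ABCG2 rose from 9.10 ± 0.592 to 27.2 ± 3.61 CPM (1.58) and CYP2S1 by 1.24, while ABCB1 (P-glycoprotein) was -0.09 (FDR 0.532). CYP1A1, the marker of aryl hydrocarbon receptor activity, was 10.6 ± 1.76 and 8.95 ± 1.31 CPM (-0.25, FDR 0.170).

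**Figure D4:**
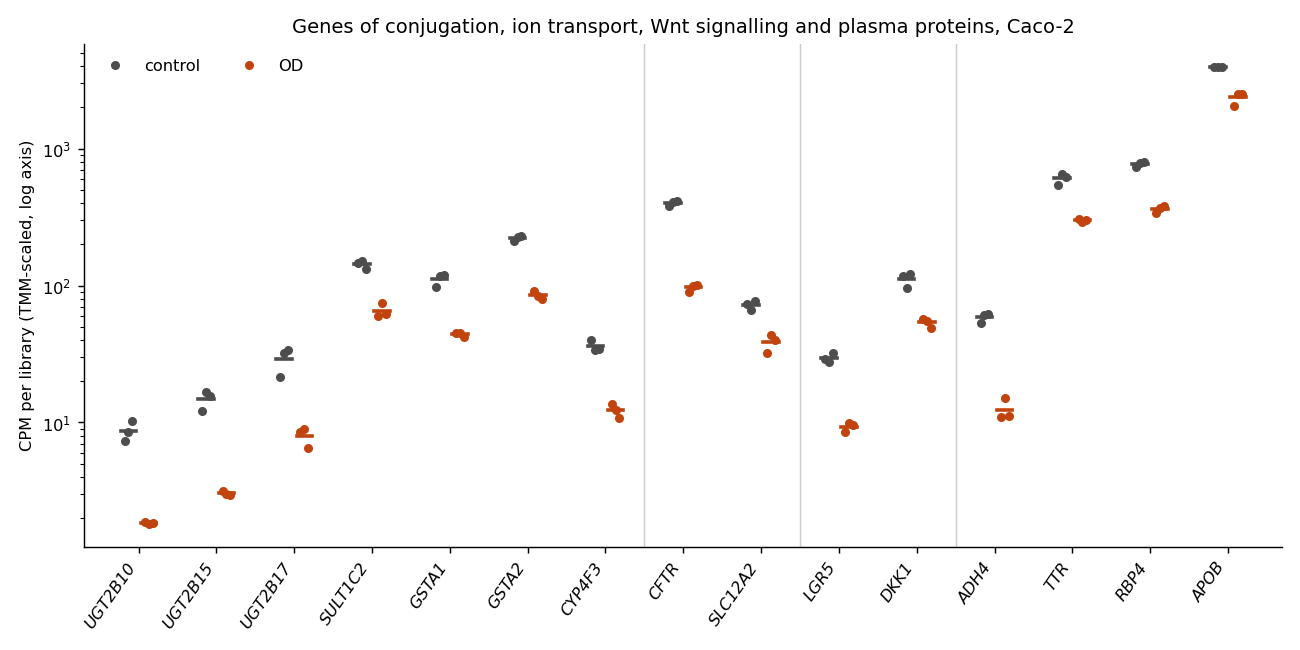
CPM of 15 genes in each library (points; log y axis) for control and OD, with the group mean as a bar, n = 3 per group; thin lines separate conjugation, ion transport, Wnt and plasma protein genes. Every OD library lies below the controls for each gene shown; SLC12A2 and APOB are under the fold limit and the other 13 were called lower.

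Of the absorptive surface, carriers were called in both directions, and the enzymes and structural genes had 1 call each. Of 13 brush border enzymes, 1 was called (ENPEP, -1.27), and of 13 structural genes, 1 (KRT20, 1.49), beside 11.7% of all genes tested. Dipeptidyl peptidase 4 (DPP4) was 817 ± 37.8 and 1117 ± 42.0 CPM (log2 0.45), and SI 289 ± 38.1 and 232 ± 35.1 CPM (-0.32). Of 18 nutrient carriers, 3 were called higher and 2 lower. Besides SLC6A8, SLC15A1 (PEPT1, for di- and tripeptides) rose from 23.5, 22.6 and 20.6 CPM to 85.0, 87.4 and 88.7 CPM (1.97, FDR 4.43e-15), and SLC36A1 (a proton-coupled amino acid carrier) by 1.72. SLC10A2 (the ileal bile acid carrier) and SLC13A2 (a citrate and succinate carrier) fell (log2 -1.67 and -1.80). Of 24 intestinal transcription factors, KLF4 rose from 13.1 ± 0.346 to 42.9 ± 3.37 CPM (1.71) and ELF3 by 1.02, and CDX2 was 0.09 (FDR 0.361). ELF3 lost its call without control replicate 3 (0.98) and OD replicate 1 (1.00).

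Adhesion genes rose in selected families. Of 6 CEACAM genes, 4 were called higher. CEACAM1, an adhesion molecule of the apical glycocalyx, stood at 36.9, 37.2 and 34.7 CPM in the controls and 203, 176 and 194 CPM with OD (2.40 ± 0.08, FDR 1.85e-17), and CEACAM6, CEACAM5 and CEACAM7 rose by 1.66, 1.58 and 1.56. Among 15 integrins, ITGA5 and ITGA2 rose by 3.85 and 1.32 and ITGB3 fell (log2 -1.18), while ITGB1, the partner of ITGA5 and ITGA2, was 0.42, under the fold limit. Of 19 tight junction genes CLDN4 alone was called (1.01), beside 11.7% of all genes tested. By the FDR alone 9 were higher, beside 25.7% of all genes. CLDN4 lost its call without control replicate 1 (0.98) and control replicate 3 (1.00). In the adenosine pathway, NT5E (CD73, which makes adenosine from AMP) fell from 22.5 ± 2.68 to 9.73 ± 0.977 CPM (-1.21, FDR 8.03e-08), and its receptor ADORA2B was 0.93 (FDR 0.0140). AQP7 and AQP10 moved in opposite directions, with AQP7 at -1.10 and AQP3 at -0.72, the latter under the fold limit.

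A few genes appeared from, or sank to, the limit of detection. In 21 called genes no control library held more than 3 counts, and in 15 no OD library did. A count of 3 corresponds to 0.175 to 0.212 CPM in these libraries, and the limit covers counting error only. NRN1 (neuritin) had 2, 1 and 1 counts in the controls and 40, 37 and 27 with OD. PDE2A (a phosphodiesterase of cAMP and cGMP) had 2, 1 and 3 and 29, 19 and 12, and TBX15 (a T-box transcription factor) 3, 3 and 2 and 19, 26 and 10. C4orf47 had 1, 2 and 0 and 29, 25 and 16, and the unnamed transcript AC025678.3 3, 1 and 2 and 24, 28 and 20. On the other side, LINC02323 had 18, 15 and 15 counts in the controls and 1, 2 and 2 with OD, AGXT (a peroxisomal aminotransferase of glyoxylate) 20, 12 and 9 and 2, 2 and 2, and COLQ, which anchors acetylcholinesterase, 13, 16 and 17 and 2, 2 and 2. LINC00578 had 20, 9 and 12 and 3, 1 and 1, and AP003031.3 15, 11 and 14 and 0, 2 and 3. C4orf47 and COLQ overlap neighbouring genes.

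Some values carry a limit of the gene model. The use of strand in counting was not stated, and ITGA5 overlaps GPR84-AS1, ANKRD37 overlaps UFSP2, BMP6 overlaps TXNDC5, NINJ2-AS1 overlaps NINJ2, and CYP51A1 overlaps AKAP9, each on the other strand. ALDOA lies within a second gene model on its own strand and was measured at 3.90 ± 0.505 and 20.9 ± 8.82 CPM. Reads of close paralogues may be divided between them, which concerns the UGT2B genes, GSTA1 and GSTA2, the CEACAM genes, SULT1A1 and SULT1A2, HSPA1A and HSPA1B, and the metallothioneins, and FTH1 and GAPDH have many processed pseudogenes.

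OD at 5 µM and CoCl2 at 300 µM were compared directly, without subtracting the controls, to ask which genes set the 2 agents apart. The labels of the CoCl2 libraries give no DMSO volume, while the study's methods name DMSO for that medium. The part of the vehicle in this comparison was not tested. Of 16034 genes tested, 1868 (11.7%) were called, 1033 (6.44%) higher with OD and 835 (5.21%) lower. With library size alone 1524 were higher and 602 lower (71.7% of the calls higher, beside 55.3%). Of the 9 hypoxia core genes 2 were called, both lower with OD (ANKRD37 by -1.86 and DDIT4 by -1.49). Of 21 glycolytic genes 4 were called lower with OD, GAPDH among them at 3281 beside 7547 ± 323 CPM (-1.20 ± 0.07, FDR 3.59e-12). For HK2 the difference was -0.38 ± 0.07 and for PFKP 0.10 ± 0.09.

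Metal, oxidant and heat shock genes differed between the agents. All 6 metallothioneins tested were lower with OD than with CoCl2 (median -5.80), with MT2A at 10.6 ± 0.474 beside 440.2 ± 24.6 CPM. MT1G and MT1H, included in the median, passed the count filter only through the CoCl2 libraries, so their direction was fixed by the filter. HMOX1 was 24.3 ± 3.05 with OD and 614 ± 38.5 CPM with CoCl2 (-4.66 ± 0.10), HSPA1A 39.3 ± 3.26 and 308 ± 9.71 CPM (-2.97), and 11 of 24 NRF2 targets, 8 of 14 heat shock genes, 11 of 40 proteasome genes and 8 of 17 immediate early genes were called lower with OD. Higher with OD were 8 of 27 genes of the integrated stress response, with CHAC1 at 6.44 ± 1.64 beside 1.26 ± 0.171 CPM (2.32). PCK1, raised by OD, was higher with it than with CoCl2 (1.24), as was VDR, the vitamin D receptor (49.7 ± 2.69 beside 14.4 ± 1.61 CPM, 1.78). DHRS2 was 2.31 ± 0.681 CPM with OD and 29.1 ± 5.33 with CoCl2 (-3.65, FDR 7.23e-14).

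**Figure D5:**
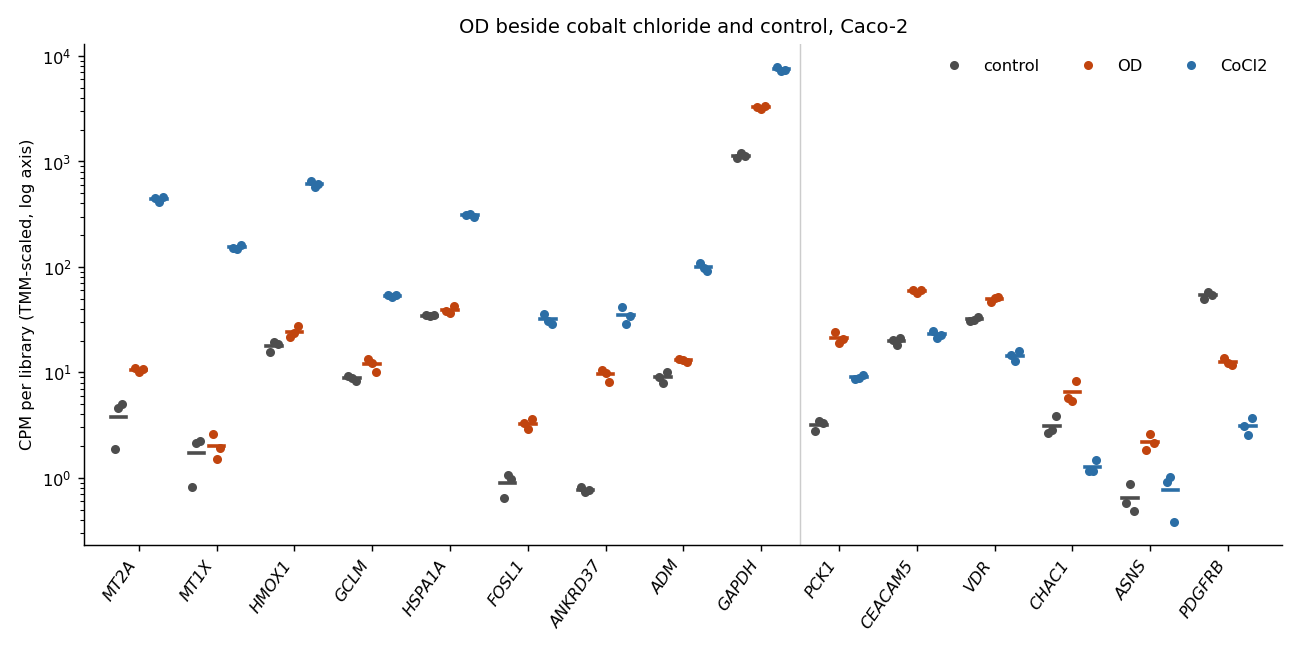
CPM of 15 genes in each library (points; log y axis) for control, OD and CoCl2, with group means as bars, n = 3 per group. The 9 genes left of the line were lower with OD than with CoCl2 and the 6 on the right higher, with MT2A at 10.6 CPM for OD.

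HT-29, a second colorectal line that the labels do not describe as differentiated, served to ask whether the response to OD depends on the cells. The difference between the 2 responses was called in 2724 of 17921 genes (15.2%), in 1605 (8.96%) with the response higher in HT-29 and in 1119 (6.24%) with it lower. The genes below were chosen for their response in Caco-2, which is subtracted in this difference, so a lower response in HT-29 for gains and a higher one for losses is favoured by the choice, and the counts are a description. Of the 15 genes with the largest gains in Caco-2, the response was lower in HT-29 in 10, higher in 0 and not called in 5. Of the 15 with the largest losses it was higher in 7, lower in 1 and not called in 7. Several of these genes were hardly present in HT-29: AQP10 had 0 CPM in its control and OD libraries alike, and ITGA5, ADH4, PDGFRB and UGT2B17 had group means under 0.2 CPM, so their difference was not measurable at this depth. CFTR, at 425 ± 11.5 CPM in the HT-29 controls and 119 ± 10.1 CPM with OD, differed by 0.19 ± 0.11 between the responses. ENO2 went from 22.7 ± 1.27 to 172 ± 17.9 CPM in HT-29, a difference of -0.30 ± 0.12. By contrast, CKB was at 118 ± 2.61 and 91.4 ± 3.56 CPM and PDK1 at 52.2 ± 2.53 and 49.8 ± 6.13 CPM in HT-29, while HK2 was at 39.0 ± 2.18 and 83.1 ± 7.62 CPM. Cell line and state of differentiation cannot be told apart here.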

How the data were processed

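Libraries of mRNA were made from 3 replicates per group, called biological by the study, and sequenced as single-end reads on a NextSeq 550. The deposited counts per gene had been made by the authors with FastQC 0.11.9, cutadapt 2.10 and STAR 2.7.5b on GRCh38.p13, with GENCODE release 34 as annotation, and the use of strand in counting was not given in the sources used here. The authors also deposited log2(RPKM + 1) values, normalised by TMM within each line with edgeR 3.30.3, which were used here for levels per length and for 1 alternative. Sample labels gave the groups, and 0 columns of per-sample values had no sample.

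Counts of the 9 Caco-2 mRNA libraries were fitted with the edgeR 4.0.16 quasi-likelihood test in R 4.3.3, with TMM scaling, filterByExpr and 1 coefficient per group, and the 18 mRNA libraries of both lines for the difference between lines. P-values were adjusted over all genes tested by the Benjamini-Hochberg method. A gene was called at an FDR under 0.05 and an absolute log2 fold change over 1. CPM are TMM-scaled, and fold changes come from the fit. The test was also tried on counts simulated from the control means and the spread of these data, and the outcome is not given here. Same-numbered control and OD libraries did not deviate together (correlations of -0.04, -0.13 and -0.05), so the main fit has no replicate term. The fit shares 1 estimate of the spread over its groups.

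Named genes were members of 77 gene lists, the 15 highest and 15 lowest log2 fold changes with a mean count of at least 100 and no overlap, the 10 largest gains and losses in mean CPM, and 5 genes each from and to a floor of 3 counts. Members, lists and tests were chosen with earlier results of these data known. Of the genes tested, 14105 (88.0%) were placed by symbol in GENCODE release 44, whose coordinates are printed, and promoter sequences are those of RefSeq on GRCh38.p14. Alternatives were other scalings (RLE, library size), count filters, DESeq2 1.42.0, limma 3.58.1 on the deposited log2 values, a replicate block, other thresholds, only the groups compared, and each library left out. Depth was 13091650 to 16428571 counts per library, and intervals from counts cover counting error only. The miRNA files were not used here. Some genes that the rule names are not reported here.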

Additional observations from a re-analysis of the deposited data

Results flagged for a closer look

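Of the genes named for the largest changes in Caco-2, 18 differed between the lines by the edgeR interaction test over 18 libraries (FDR under 0.05 and an absolute difference over 1 on the log2 scale). These genes were chosen for their response in Caco-2, which is subtracted in the difference, so the choice favours a lower response in HT-29 for gains and a higher one for losses. Each value is the response to OD in HT-29 minus that in Caco-2. Because HT-29 cells were not described as differentiated, cell line and culture state cannot be told apart.

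Among genes with the largest gains in Caco-2, the response in HT-29 was lower by -3.63 for ARHGAP45, -3.26 for CKB, -2.83 for PDK1, -2.64 for EMP1, -2.43 for PPFIA4, -2.10 for HK2, -2.10 for SLC6A8, -1.95 for PFKFB4, -1.74 for PFKP and -1.70 for SPAG4. Among genes with the largest losses it was higher by 2.92 for DHRS2, 2.67 for ARHGEF38, 2.14 for ATP10B, 1.56 for DEFB1, 1.34 for TM4SF4, 1.12 for NINJ2-AS1 and 1.00 for AC019197.1, and lower by -2.76 for UGT2B15. Some of these rest on few counts in HT-29. There DEFB1 stood at 0.663 ± 0.145 CPM in the controls and 0.497 ± 0.283 CPM with OD. UGT2B15 stood at 1.54 ± 0.491 and 0.0384 ± 0.0333 CPM, and AC019197.1 at 1.61 ± 0.318 and 0.787 ± 0.161 CPM.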

How the results depend on the processing

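For OD against control, 1876 genes were called, and between 1714 and 2008 when 1 of the 6 libraries was left out. Only genes with a mean count of at least 100 gave 661 calls (313 higher, 348 lower), and no limit on the fold change gave 8084 (4123 and 3961). Limma-trend on the deposited log2(RPKM + 1) values gave 381 (247 and 134) of 13153 genes tested, and the cause was not tested. DESeq2 called 1708. For OD against CoCl2, the count minimum gave 610 calls (336 and 274) and no fold limit 7957 (4040 and 3917). For the difference between lines they gave 1466 (849 and 617) and 7682 (3742 and 3940). Both changes follow from the construction. Leaving out 1 library gave 1739 to 1977 and 2562 to 2782 calls. Other alternatives moved no count of calls by over 1.5 times.

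A replicate block gave 1891, 1842 and 2673 calls for the 3 comparisons, and 1 named gene, SULT1A2, lost its call under it. Pairing by number had no support in the deviations of the libraries.

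Of 217 called genes named, 70 lost the call under at least 1 alternative, and 0 of 3736 pairs of a gene and an alternative reversed. Of 2156 list counts under alternatives, 200 moved by over 1.5 times. The cause was not tested. Genes under 3 counts per library, the shared spread and 3 replicates per group limit what could be seen.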
